A study of Mus musculus with 18 samples.

Results

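The comparison described here is Asn restriction against control medium at 72 h of culture, in 6 of the 18 libraries of the series: 3 libraries of cells cultured under Asn restriction and 3 of cells cultured in complete medium. The 6 were picked out by their labels (medium and time point) and not by a measured value. The comparison itself, the gene lists and the tests were chosen with earlier results of these data known. In both media the cells were naive CD8+ T cells from spleen and lymph nodes of wild-type male C57BL/6N mice of 8-12 weeks of age, activated on plates coated with anti-CD3 and anti-CD28. The study's methods describe mouse IL-2 and IL-12 in such cultures. By the same methods the restriction medium is an Asn-free RPMI with dialyzed serum and added alanine, while complete medium is described with ordinary serum in one place and with dialyzed serum and alanine in another. If the control wells of the RNA experiment held ordinary serum, effects of Asn and of serum cannot be told apart. The other 12 libraries of the series were taken at 4 h and 24 h. They entered the joint fit behind the 72 h tests. Their own effects, mainly those at 24 h, are given below to show where the 72 h response differed or was the same.

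Asn is a nonessential amino acid that cells make from aspartate with asparagine synthetase, the product of Asns, and it is loaded on its tRNA by asparaginyl-tRNA synthetase, the product of Nars. Cells that lack an amino acid activate the kinase GCN2, which phosphorylates the initiation factor eIF2 and raises translation of the transcription factor ATF4; ATF4 in turn binds promoters of genes for amino acid synthesis, uptake and tRNA charging. A CD8+ T cell that has been activated for days is a growing and dividing effector cell, which makes ribosomes, lipids and nucleotides, turns glucose into lactate, and expresses cytokines and the granule proteins of killing.

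The libraries held 11417641 to 16969456 gene counts in control and 15060833 to 19696447 under Asn restriction, a depth at which counting error matters only for weakly expressed genes. Control replicate 2 stood apart: it had the fewest counts, 0.439% of them from the mitochondrial genome against 0.803% to 0.987% in the other 5 libraries. Spike-in RNAs (ERCC) took 1.38% to 1.72% of counts in control and 0.829% to 1.5% under restriction, with overlap. The labels do not say whether the 3 libraries of a group came from separate mice or cultures, so p-values measure only the spread between libraries. The CD8 T cell markers Cd8a, Cd8b1, Cd3e and Trac were present in every library, with a summed level of 567.6 to 585.4 CPM (gene counts scaled to a fixed library total) in control and 401.3 to 415.0 CPM under restriction. The defining B cell genes (Cd79a, Cd79b, Ms4a1) summed to at most 4.06 CPM, the defining myeloid genes to at most 0.831 CPM and the NK genes to at most 0.467 CPM, with Ncr1 at 0 in all 6 libraries. A longer list of 12 myeloid and dendritic marker genes summed to 65.6 to 68.4 CPM in control and 60.1 to 62.1 CPM under restriction, with 2 up and 1 down. The 4 genes used to mark CD4 T cells summed to 116.7 to 129.6 CPM in control and 57.8 to 67.4 CPM under restriction, most of it Zbtb7b (115.1 to 128.0 CPM and 55.3 to 64.4 CPM), while Cd40lg went the other way, from 0.540 to 0.585 CPM to 2.08 to 2.34 CPM. Cd4 stood at 0.779, 1.003 and 1.199 CPM in the control libraries and 0.476, 0.288 and 0.208 CPM under restriction (log2 fold change -1.63, edgeR adjusted p = 0.0122, and 0.0533 and 0.0648 without control replicate 3 and restricted replicate 3). In bulk RNA, fewer cells of a kind and less RNA per cell cannot be told apart.

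Of 14871 genes tested by edgeR's quasi-likelihood test, 7313 (49.2%) passed an adjusted p of 0.05 at 72 h: 3774 (25.4%) were higher and 3539 (23.8%) lower under Asn restriction. In 7965 genes (53.6%) the 3 restricted libraries lay wholly above or wholly below the 3 control libraries. These shares are the background for every group of genes below. Of the 11944 protein-coding genes tested, 29.83% were higher and 27.34% lower, the nearer background for lists of such genes. With at least 10 counts in every library, 3249 of 10248 genes were higher and 3315 lower. A list near these shares is not set apart by its counts. List members named below were mostly picked as called genes with the largest fold changes. For them a lack of overlap between the media adds little. Most changes were small, with 53.3% of the called genes under 1.5-fold, while 647 genes were at least 2-fold higher and 788 at least 2-fold lower, and 39 and 36 were at least 8-fold higher and lower. The median log2 fold change of all genes was -0.01. Scaling by the ERCC spike-ins moved that median to 0.31, with 4239 genes higher and 754 lower (84.9% of the calls higher against 51.6%), so that each fall described here is a fall relative to the other mRNAs of the cell. Of the genes named in the text, 37 that fell kept their direction but did not pass under that scaling, among them Ddit3, Trib3, Vars, Scd2, Rpl13, Rps3, Eef1a1, Eef2, Psmb8, Psmb9, Lonp1, Cdkn1b, Nkg7, Cd3g, H2-D1 and Tap1. Scaling by total counts without the TMM factors moved it to -0.12, with 3043 higher and 4555 lower (40.1% of the calls higher).

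**Figure D1:**
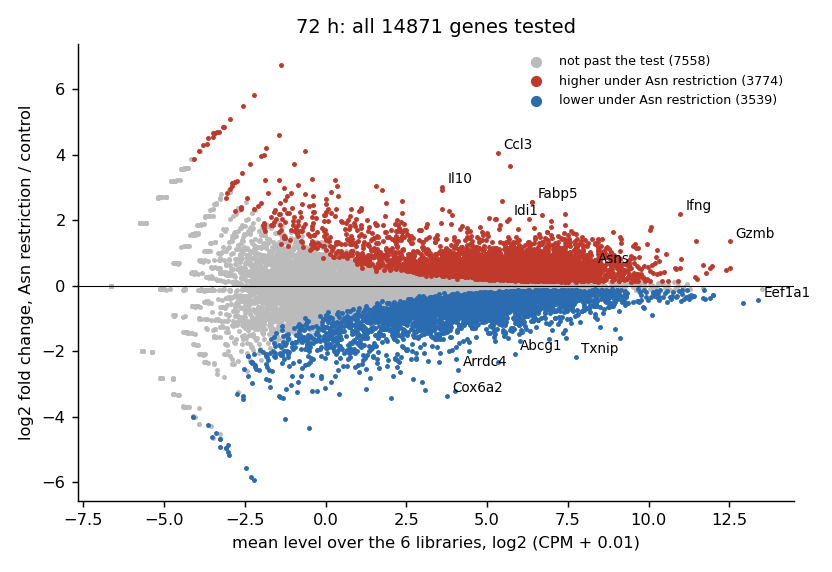
Log2 of the mean CPM over the 6 libraries, with a small constant added, of each of the 14871 genes tested (x axis). The y axis is the log2 fold change at 72 h, Asn restriction over control. Red genes were called higher, blue genes lower, grey genes neither. The called genes spread on both sides of 0, with 3774 above and 3539 below, and some genes of the text are labelled.

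Among the largest rises in well expressed genes, alongside those of Il10, Prf1, Gzmc and Ifng, were chemokine genes and Myh11, Fabp5, Dhx9, Dna2 and Mat2a. Besides the chemokine genes Ccl3 and Ccl4, whose products recruit monocytes and T cells, the family member Ccl9 rose: it stood at 3.62, 1.34 and 3.24 CPM in the control libraries and 19.9, 22.1 and 23.1 CPM under restriction, 7.57-fold. Fabp5, which encodes a fatty acid binding protein, stood at 24.3, 20.7 and 27.5 CPM in control and 144, 151 and 137 CPM under restriction, 5.91-fold (log2 fold change 2.56, standard error 0.071, edgeR adjusted p = 5.71e-23). Mat2a, which encodes the enzyme that makes S-adenosylmethionine, the methyl donor of the cell, went from 37.6, 39.6 and 38.6 CPM to 173, 170.0 and 169 CPM, 4.43-fold. In all of these the 3 libraries of one medium were clear of the 3 of the other, a condition of being named among the largest changes. Dhx9, an RNA and DNA helicase gene, rose 4.55-fold to 280.5 CPM and Dna2, which encodes a nuclease and helicase of replication forks, 4.46-fold to 24.9 CPM. Myh11, a myosin heavy chain gene best known from smooth muscle, rose 6.07-fold to 76.3 CPM. Il1rl1, which encodes the IL-33 receptor ST2, rose 4.17-fold.

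Among the largest falls in well expressed genes were those of Cox6a2, Pou6f1, Avil, Dapk2, Arrdc4 and Angptl6. Cox6a2 (chr7:128205435-128206387, minus strand), the muscle form of a cytochrome oxidase subunit gene, stood at 22.7, 28.0 and 22.9 CPM in the control libraries and 2.58, 1.903 and 2.65 CPM under restriction, 10.3-fold lower (log2 fold change -3.36, standard error 0.20, edgeR adjusted p = 2.92e-15). It had been higher under restriction at 24 h, with a log2 fold change of 4.15. Angptl6, a secreted angiopoietin-like protein gene, stood at 65.1, 81.5 and 56.8 CPM and 16.1, 10.3 and 13.9 CPM, 5.04-fold lower at 72 h and with a log2 fold change of 4.77 at 24 h. Pou6f1, a POU homeobox gene, fell 9.08-fold and Avil, which encodes the actin-binding protein advillin, 7.73-fold; their log2 fold changes at 24 h were 1.82 and 2.63. Dapk2, a death-associated kinase gene, was 7.24-fold lower at 72 h and not called at 24 h. The 3 restricted libraries were below all 3 control libraries for each of these genes, which the rule that named them required.

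**Figure D2:**
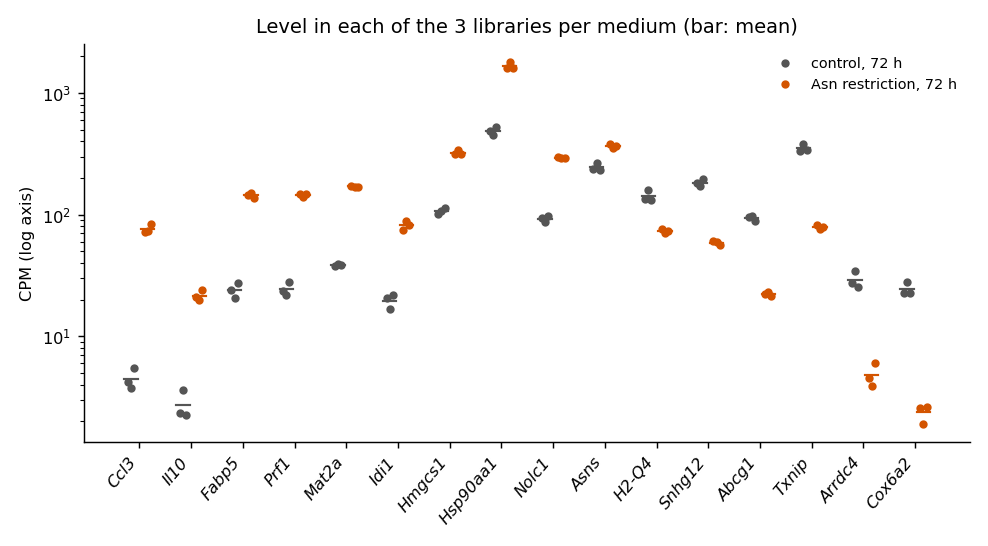
CPM (log axis) of 16 genes in each library at 72 h; each dot is 1 library, grey for control and orange for Asn restriction, and the bar is the mean of 3. The media do not overlap for any gene shown, with Ccl3 the widest gap upward and Cox6a2 the widest downward.

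Genes of the response to a missing amino acid were split at 72 h, though less so with spike-in scaling. Asns (chr6:7675169-7693254, minus strand, GRCm38) stood at 237, 263 and 234 CPM in the control libraries and 378, 356 and 364 CPM under restriction, 1.496-fold higher (log2 fold change 0.58, standard error 0.052, edgeR adjusted p = 6.04e-11). Nars stood at 448, 482 and 451 CPM and 734, 737 and 698 CPM, 1.57-fold higher. The gene of the regulator itself, Atf4, had 539, 591 and 522 CPM in control and 753, 715 and 732 CPM under restriction, 1.33-fold higher. Each of these was above control in 3 of 3 libraries, and each had also been higher at 24 h, with log2 fold changes of 0.70, 0.50 and 0.21. The effect on Asns was not shown to differ between the 2 times (72 h minus 24 h -0.12, edgeR adjusted p = 0.187). Of 46 tested ATF4 targets and stress response genes, 21 rose and 12 fell, with a median log2 fold change of 0.10 (-0.01 without the TMM factors), against -0.01 for all genes. With spike-in scaling 22 of them rose and 4 fell, with a median of 0.44 against 0.31 for all genes. Among those that rose were genes of amino acid supply: Slc7a11, which imports cystine, stood at 13.8, 13.5 and 19.1 CPM in control and 37.96, 40.5 and 37.8 CPM under restriction, 2.499-fold higher, Cth, which makes cysteine, rose 2.34-fold, Slc7a3, a transporter of cationic amino acids, 1.83-fold and the serine synthesis gene Psat1 1.65-fold. Among those that fell were stress regulators: Ddit3, which encodes the stress factor CHOP, stood at 162, 171 and 173 CPM in control and 98.7, 99.5 and 95.8 CPM under restriction, 1.72-fold lower, after a log2 fold change of 2.80 at 24 h. Atf5, another factor of the pathway, fell 1.52-fold, the stress gene Nupr1 1.98-fold, the autophagy receptor gene Sqstm1 1.76-fold and Trib3, a pseudokinase gene that ATF4 and CHOP induce, 1.29-fold. All of these 5 were higher under restriction at 24 h. For 23 of the 46 genes the effect was lower at 72 h than at 24 h, and for 12 it was higher.

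**Figure D3:**
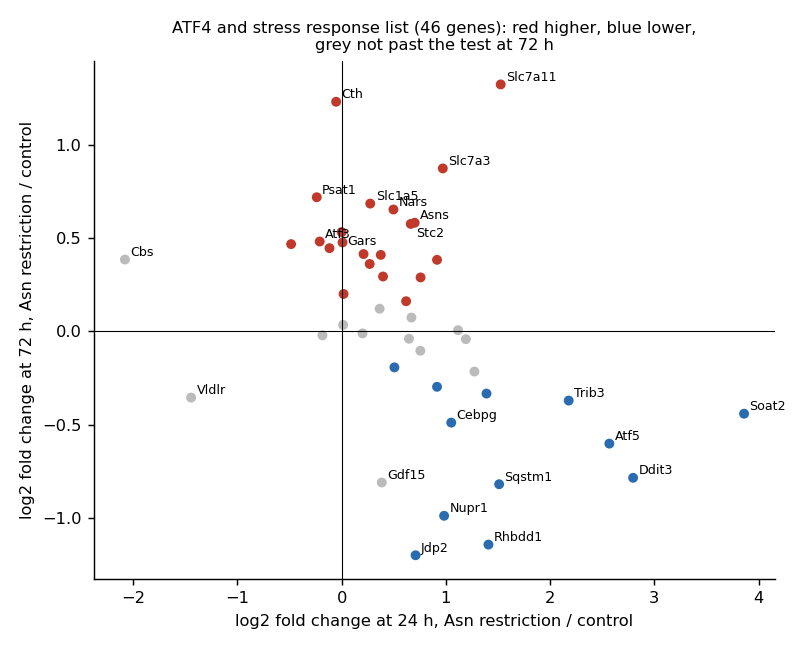
Log2 fold change at 24 h (x axis) and at 72 h (y axis), Asn restriction over control, of the 46 genes of the ATF4 and stress response list; red genes were called higher at 72 h, blue genes lower, grey genes neither. Asns, Nars, Slc7a3 and Slc7a11 lie in the upper right, higher at both times, while Ddit3, Atf5, Trib3, Nupr1 and Sqstm1 lie in the lower right, higher at 24 h and lower at 72 h.

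The promoters of this list are shown because some of its members hold the element that ATF4 and C/EBP factors bind together. The 250 bases before the start of each gene (RefSeq, GRCm38.p6) were searched on both strands for TGATGNAA; TTGCATCA and TTTCATCA are its forms on the other strand. Of 37 listed genes with a RefSeq promoter, 8 (21.6%) held a match, against 1.92% of 9952 promoters of tested genes and 3.53% of all 27025 promoters. For most of these the match stands in capitals in the 38 bases around it, written 5′ to 3′ on the strand of the gene; Slc7a11 holds another match that begins at the right edge of its window.
Asns (chr6:7693210-7693247, minus strand): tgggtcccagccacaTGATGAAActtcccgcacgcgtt
Chac1 (chr2:119351034-119351071, plus strand): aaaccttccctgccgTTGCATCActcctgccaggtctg
Atf3 (chr1:191183421-191183458, minus strand): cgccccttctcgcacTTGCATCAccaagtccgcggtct
Slc7a11 (chr3:50443657-50443694, minus strand): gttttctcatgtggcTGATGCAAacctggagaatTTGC
Gars (chr6:55037956-55037993, plus strand): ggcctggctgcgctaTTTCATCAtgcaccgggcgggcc
Nupr1 (chr7:126625558-126625595, minus strand): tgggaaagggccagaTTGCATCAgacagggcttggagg
Pycr1 (chr11:120643829-120643866, minus strand): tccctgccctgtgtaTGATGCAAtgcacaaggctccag
The matches lay between 23 bases (Asns) and 193 bases (Chac1) before the RefSeq start. Gene coordinates in the text are from GENCODE, whose starts can differ. By GENCODE the windows of Asns and Nupr1 lie inside the gene. Asns, Chac1, Atf3, Slc7a11 and Gars rose at 72 h, by 0.58, 0.38, 0.48, 1.32 and 0.53 on the log2 scale. Nupr1 fell by 0.99, and Pycr1, a proline synthesis gene, did not pass (log2 fold change -0.21, edgeR adjusted p = 0.06, and 0.025 without restricted replicate 1). A match is a description of the letters and not a site of binding.

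Genes that charge tRNAs and answer oxidants were mostly higher. Of 40 aminoacyl-tRNA synthetase and cofactor genes 25 rose and 5 fell (median log2 fold change 0.29). Rars, for arginine, stood at 107, 105 and 113 CPM in control and 268, 278 and 268 CPM under restriction, 2.51-fold higher, and Eef1e1, a subunit of the synthetase complex, rose 2.23-fold. Vars, for valine, fell 1.44-fold, from 711, 940.4 and 662 CPM in the control libraries to 557, 508 and 542 CPM. Every restricted library was outside the control range for these genes. Of 27 amino acid transporter genes 9 rose and 7 fell (10 up and 0 down with spike-in scaling). Of 33 textbook targets of NRF2, the oxidant-sensing transcription factor, 20 rose and 7 fell (median 0.41). The peroxiredoxin gene Prdx1 went from 119, 114 and 124 CPM to 310.4, 319.6 and 330.2 CPM, 2.68-fold, the glutathione reductase gene Gsr rose 2.18-fold and the heme oxygenase gene Hmox1 2.12-fold. Nfe2l2, which encodes NRF2 and is itself regulated mainly at the protein level, stood at 54.1, 47.05 and 57.9 CPM in control and 41.9, 45.4 and 43.8 CPM under restriction, 1.22-fold lower, but with a log2 fold change of 0.07 under spike-in scaling. The metallothionein genes, which encode metal-binding proteins, were higher as well: Mt1 rose 3.403-fold, Mt2 4.12-fold to 126 CPM and Mt3 4.09-fold to 60.97 CPM.

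Genes of cholesterol synthesis rose almost as a whole. Of 21 tested genes of the mevalonate and cholesterol route 20 rose and none fell, with a median log2 fold change of 0.98; at 24 h 20 of the 21 had been lower (median -1.49). The exception was Tm7sf2, a sterol reductase gene, at 12.02, 15.6 and 11.4 CPM in control and 11.9, 12.2 and 10.5 CPM under restriction. Idi1, which makes the isoprene unit dimethylallyl diphosphate, stood at 20.5, 16.6 and 21.8 CPM in the control libraries and 75.4, 88.4 and 81.9 CPM under restriction, 4.13-fold higher (log2 fold change 2.04, standard error 0.081, edgeR adjusted p = 2.55e-19). Hmgcs1, the cytosolic HMG-CoA synthase gene at the head of the route, stood at 102, 108 and 113 CPM and 316, 339 and 315 CPM, 3.02-fold higher. All restricted libraries were above all control libraries in both genes. Cyp51, a demethylase gene of the sterol stage, rose 2.61-fold to 378 CPM, Acat2, which makes acetoacetyl-CoA, 2.68-fold and Hsd17b7, a later reductase gene, 3.17-fold. The difference between the effects at 72 h and 24 h passed the test upward for 20 of the 21 genes, with a median of 2.58.

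The promoters of Hmgcs1 and Idi1 are shown because this family is the textbook case of control by SREBP, which binds a sterol regulatory element beside CCAAT boxes bound by NF-Y. The 250 bases before the start (RefSeq, GRCm38.p6) are written on the strand of the gene, with matches to TCACNCCAC and to CCAAT, whose form on the other strand is ATTGG, in capitals.
Hmgcs1 (chr13:119690101-119690350, plus strand): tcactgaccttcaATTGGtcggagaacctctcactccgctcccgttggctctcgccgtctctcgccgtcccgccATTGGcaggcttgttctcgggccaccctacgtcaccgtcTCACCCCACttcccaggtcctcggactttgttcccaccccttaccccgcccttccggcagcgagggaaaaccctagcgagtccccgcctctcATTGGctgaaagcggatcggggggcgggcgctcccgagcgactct
Idi1 (chr13:8885356-8885605, plus strand): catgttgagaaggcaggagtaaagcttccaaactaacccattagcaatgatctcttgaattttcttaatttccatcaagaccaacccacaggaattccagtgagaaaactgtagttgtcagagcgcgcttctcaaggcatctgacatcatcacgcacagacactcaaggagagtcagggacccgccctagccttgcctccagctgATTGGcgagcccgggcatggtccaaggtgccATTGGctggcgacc
In Hmgcs1 TCACCCCAC began 137 bases before the RefSeq start and ATTGG began 237, 176 and 45 bases before it. In Idi1 ATTGG began 45 and 14 bases before the RefSeq start. The GENCODE start of Idi1 lies further upstream, inside the window shown. Of 16 genes of the route with a RefSeq promoter, 14 (87.5%) held CCAAT on either strand, against 36.7% of promoters of tested genes and 34.5% of all promoters. TCACNCCAC was found in Hmgcs1 alone of the 16, against 0.894% of promoters of tested genes and 1.04% of all; other forms of the element were not searched.

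Genes that take up, control and export sterols moved both ways, 6 up and 6 down of 21 (6 up and 3 down with spike-in scaling). Insig1, which holds SREBP back in the ER, rose 1.69-fold and the sterol carrier gene Stard4 1.76-fold; these are SREBP targets too, and both had fallen at 24 h. Abcg1 (chr17:31057675-31117988, plus strand), which exports cholesterol, stood at 96.02, 97.3 and 89.3 CPM in the control libraries and 22.2, 23.01 and 21.3 CPM under restriction, 4.25-fold lower (log2 fold change -2.09, standard error 0.079, edgeR adjusted p = 7.98e-20). Mylip, which encodes the ubiquitin ligase IDOL, fell 2.66-fold from 6.04 CPM, and Npc1, which lets cholesterol out of lysosomes, 1.75-fold. Abcg1 and Mylip are targets of the oxysterol receptor LXR in textbooks, as is Abca1, another exporter gene, which rose 1.36-fold from 19.2 CPM. Of the SREBP genes themselves, Srebf2 did not pass, with 445, 491 and 413 CPM in control and 482, 463 and 485 CPM under restriction, libraries that overlap, although without control replicate 2 it passed (log2 fold change 0.16, edgeR adjusted p = 0.00439).

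Fatty acid genes rose in part: 11 of 20 were higher and 2 lower (median 0.46). Acly, which makes cytosolic acetyl-CoA from citrate, stood at 192, 189.5 and 185 CPM in control and 447, 466 and 464 CPM under restriction, 2.43-fold higher, and the fatty acid synthase gene Fasn rose 1.99-fold. The most abundant member per base of transcript, the desaturase gene Scd2 (347 RPKM in control), fell 1.32-fold, to 1417, 1440.0 and 1432 CPM from 1952, 1842 and 1876 CPM. Its neighbour in function Scd1 rose 1.33-fold and the desaturase gene Fads2 1.79-fold. At 24 h all 3 desaturase genes had been lower, by 3.47, 5.79 and 4.85 on the log2 scale.

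Genes that build ribosomes rose while most genes of the ribosome's own proteins that changed fell. Of 69 ribosome biogenesis genes, which act on rRNA synthesis, processing and assembly in the nucleolus, all 69 tested were higher under restriction, with a median log2 fold change of 0.87; the count was 67 to 69 under the 4 other scalings. Nolc1, a nucleolar chaperone gene, stood at 93.3, 86.2 and 96.97 CPM in control and 295, 294 and 291 CPM under restriction, 3.18-fold higher (log2 fold change 1.67, standard error 0.044, edgeR adjusted p = 3.01e-23). Polr1b, a subunit of RNA polymerase I, rose 2.81-fold, Mybbp1a, a nucleolar regulator gene, 2.68-fold and Dkc1, whose product modifies rRNA with pseudouridine, 2.53-fold. The nucleolin gene Ncl, already abundant, went from 1490.0, 1400.0 and 1567 CPM to 2520.0, 2779 and 2484 CPM. In all 5 genes the media did not overlap. The effect was higher at 72 h than at 24 h for all 69, of which 52 had been lower at 24 h. CACGTG, the E-box that MYC binds, was found in 4 of 59 of their promoters (6.78%), against 8.49% of promoters of tested genes; Myc itself rose 1.796-fold, to 353 CPM.

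Of 81 cytosolic ribosomal protein genes, by contrast, 46 fell and 5 rose, with 8 up without control replicate 1 and 12 without control replicate 3, and a median log2 fold change of -0.14, which turned to 0.19 (11 up, 0 down) with spike-in scaling. The falls were small but lay in the most abundant mRNAs of the cell. Rpl13 stood at 2398, 2506 and 2337 CPM in control and 1760.0, 1582 and 1857 CPM under restriction, 1.39-fold lower, and Rps3 at 3767, 4392 and 3728 CPM and 3066, 2894 and 2935 CPM, 1.34-fold lower. The genes that lost the most CPM were the elongation factor genes Eef1a1, with 11930.0, 13070.0 and 12370.0 CPM in control and 8980.0, 9302 and 9047 CPM under restriction, and Eef2, with 9076, 9683 and 8866 CPM and 6436, 6270.0 and 6490.0 CPM. No restricted library of these 4 genes reached the control range. Among the 5 that rose were paralogs of core genes: Rps27l rose 1.98-fold, Rpl7l1 1.796-fold and Rpl39l, at 2.95 CPM, 3.53-fold. Ribosomal protein genes have many processed copies in the genome, and how reads shared with them were counted is not given in the sources used here; of 500 tested processed pseudogenes, 64 were higher and 14 lower.

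The host genes of small nucleolar RNAs, whose transcripts share with ribosomal protein and elongation factor mRNAs a tract of pyrimidines at their 5′ end, fell too: 7 of 14 Gas5 and Snhg genes were lower and 2 higher (median -0.26, turning to 0.09 with spike-in scaling). Snhg12 stood at 181, 171 and 195 CPM in control and 60.5, 59.8 and 56.4 CPM under restriction, 3.105-fold lower. Snhg1 fell 2.42-fold and Gas5 1.87-fold, from 1477, 1344 and 1478 CPM to 788, 769 and 747 CPM. Against these, Snhg3 rose 2.25-fold and Snhg4 1.73-fold. Of 54 genes of translation initiation factors 37 rose and 6 fell (median 0.38). Eif2s1, the subunit of eIF2 that stress kinases phosphorylate, rose 2.68-fold, from 106, 85.1 and 113 CPM to 263, 285 and 268 CPM, the helicase gene Eif4a1 2.397-fold and Eif6, which acts in 60S subunit maturation, 2.28-fold, while Eif3f, a subunit of eIF3, fell 1.54-fold.

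**Figure D4:**
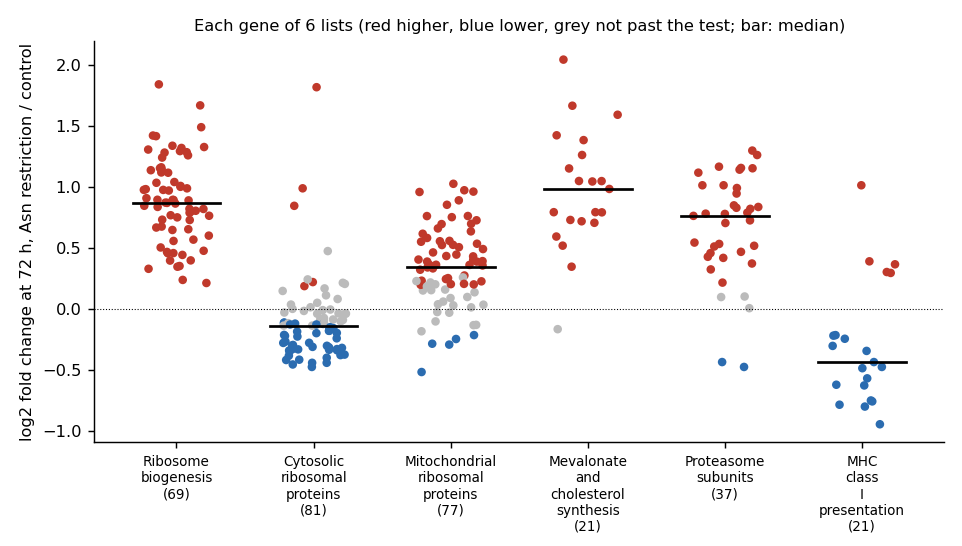
Log2 fold change at 72 h, Asn restriction over control (y axis), of each tested gene of 6 lists; red genes were called higher, blue genes lower, grey genes neither, and the bar is the list's median. Ribosome biogenesis (median 0.87) and cholesterol synthesis (0.98) lie above 0, cytosolic ribosomal proteins (-0.14) and MHC class I presentation (-0.44) mostly below, and each list but the first has members on both sides or past no test.

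Genes that fold and degrade proteins were mostly higher. Of 37 proteasome genes 32 rose and 2 fell (median 0.76). Psmd6, of the regulatory cap, stood at 72.1, 65.6 and 65.6 CPM in control and 164, 168 and 168 CPM under restriction, 2.46-fold higher, and Psma3, of the core, rose 2.398-fold. The members that fell were Psmb8, 1.35-fold lower at 255 CPM, and Psmb9, 1.39-fold lower at 76.5 CPM, catalytic subunits of the immunoproteasome that interferon induces; the remaining immunoproteasome gene, Psmb10, rose 2.02-fold, from 19.3, 29.3 and 20.6 CPM to 46.3, 42.6 and 48.8 CPM. Of 14 genes of the chaperonin CCT and prefoldin, which fold tubulin and actin, 12 rose and none fell (median 0.63), with Cct8 at 326, 324 and 320.5 CPM in control and 797, 840.4 and 761 CPM under restriction, 2.47-fold higher. Of 28 cytosolic heat shock genes 21 rose and 1 fell (median 0.57). Hsp90aa1, the inducible HSP90, stood at 482, 451 and 522 CPM and 1615, 1791 and 1615 CPM, 3.45-fold higher, its cochaperone gene Ahsa1 rose 2.45-fold, and the HSP70 family gene Hspa8 2.12-fold. The restricted libraries were above control in each of these. Hspa1a, the classic marker of heat stress, was low and did not pass, at 1.34, 1.75 and 1.74 CPM in control and 1.02, 1.21 and 1.298 CPM under restriction. Genes of the ER chaperones and unfolded protein response split, with 16 up and 9 down of 38 (median 0.04, and -0.07 without the TMM factors).

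Genes of autophagy and lysosomes fell more often than they rose, and genes of nutrient sensing moved both ways. Of 49 autophagy and lysosome genes 21 fell and 12 rose (median -0.16, turning to 0.17 with 5 down and 12 up under spike-in scaling). Atg12, part of the conjugate that builds autophagosomes, stood at 68.8, 68.2 and 68.5 CPM in control and 21.1, 25.1 and 24.6 CPM under restriction, 2.89-fold lower. The lysosomal genes Hexa and Psap fell 2.12-fold and 1.83-fold, while Gusb, another lysosomal enzyme gene, rose 1.76-fold. Among 37 genes of the mTORC1 pathway, which couples amino acids to growth, 14 rose and 11 fell. Sesn3, which encodes a sestrin, a brake on mTORC1, stood at 156, 149 and 162 CPM and 71.7, 69.2 and 69.99 CPM, 2.22-fold lower, Castor2, of the arginine-sensing CASTOR family, fell 2.06-fold and Pik3ip1, an inhibitor of PI3K, 2.395-fold. Rheb, the small GTPase gene that switches mTORC1 on, rose 1.6-fold. Atg12, Sesn3, Castor2 and Pik3ip1 had been higher at 24 h.

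Genes of glycolysis rose more often than they fell, and Txnip and Arrdc4, which brake glucose uptake, were lower. Of 34 glycolysis and lactate genes 17 rose and 7 fell (median 0.20; -0.69 at 24 h). Ldha, which makes lactate and was among the 6 genes that gained the most CPM, stood at 1563, 1636 and 1546 CPM in control and 4167, 4067 and 4078 CPM under restriction, 2.595-fold higher (log2 fold change 1.38, standard error 0.037, edgeR adjusted p = 3.01e-23). Pkm, the pyruvate kinase gene, went from 3121, 3400.0 and 3098 CPM to 4873, 4973 and 4649 CPM, 1.51-fold. The glucose transporter gene Slc2a1 rose 2.33-fold, the phosphofructokinase gene Pfkl 2.56-fold and the lactate exporter gene Slc16a3 2.34-fold, with no overlap between the media in any of them. Txnip (chr3:96557957-96561883, plus strand), an arrestin that removes glucose transporters from the surface and whose gene is induced by glucose through MondoA, stood at 336, 384 and 338 CPM in control and 81.6, 75.5 and 78.7 CPM under restriction, 4.48-fold lower (log2 fold change -2.16, standard error 0.059, edgeR adjusted p = 4.59e-23). Its relative Arrdc4, under the same control, stood at 27.6, 34.7 and 25.4 CPM and 4.56, 3.92 and 6.08 CPM, 5.94-fold lower. Both had been higher at 24 h. Pdk2, a kinase gene that holds pyruvate back from mitochondria, fell 3.96-fold at about 3.098 CPM in control, and the neuronal and brain forms Eno2 and Aldoc fell 2.49-fold and 1.57-fold. Of 21 hypoxia response genes 13 rose and 2 fell; Ak4, an adenylate kinase gene, rose 3.08-fold to 47.9 CPM and Egln3, an oxygen sensor gene, 2.03-fold.

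Mitochondrial genes rose in larger part for building the organelle than for its respiratory chain. Of 77 mitochondrial ribosomal protein genes 50 rose and 5 fell (median 0.34), and of 33 genes of mitochondrial biogenesis and import 25 rose and 4 fell (median 0.40). Phb, the prohibitin gene of the inner membrane, stood at 93.5, 84.2 and 97.9 CPM in control and 279, 276 and 256 CPM under restriction, 2.93-fold higher, the import channel gene Tomm40 rose 2.66-fold and the chaperonin gene Hspd1 2.42-fold. Lonp1, a protease of the matrix, fell 1.61-fold, from 1098, 1227 and 1081 CPM to 713, 711 and 696 CPM. Of 30 genes of the TCA cycle 18 rose and 5 fell (median 0.28): Dld rose 2.68-fold, Idh3a 2.42-fold and the pyruvate dehydrogenase gene Dlat 2.04-fold, and Idh2 fell 1.41-fold. Of 77 nuclear genes of the respiratory chain 37 rose and 14 fell (median 0.16), with Uqcrfs1 1.97-fold higher and Cox7a2l 1.54-fold lower.

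The mRNAs of the mitochondrial genome itself, 10 of which were tested, gave 6 rises and no fall (median 0.42), but this rests in part on control replicate 2, whose mitochondrial share was low. mt-Co1 stood at 5065, 2848 and 5662 CPM in the control libraries and 6030.0, 6429 and 6511 CPM under restriction, 1.397-fold higher, and mt-Nd1 at 643, 341 and 716 CPM and 862, 893 and 1028 CPM, 1.63-fold higher. The second control value is the lowest in both. With all libraries the log2 fold change of mt-Co1 was 0.48; without that library it was 0.24, 5 of the 10 genes rose and the median was 0.17. mt-Nd6, from the other strand of the mitochondrial genome, had less spread, at 145, 131 and 151 CPM and 236, 294 and 220.0 CPM.

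Genes of DNA replication and division were mostly higher. Of 51 genes of replication origins and forks 41 rose and 2 fell (median 0.55), and 1 fell when control replicate 1 or 2 or restricted replicate 2 or 3 was left out. Orc1, of the origin recognition complex, stood at 25.4, 24.4 and 22.7 CPM in control and 51.4, 53.4 and 56.1 CPM under restriction, 2.22-fold higher, and the sliding clamp gene Pcna at 364, 336 and 372 CPM and 764, 768 and 711 CPM, 2.09-fold higher. Pold2, a subunit of DNA polymerase delta, rose 2.14-fold. Of 61 replication dependent histone genes 36 rose and 2 fell (median 0.43), with Hist1h4a 2.68-fold higher; these genes are near copies of each other and may share reads, and without control replicate 3 or restricted replicate 3 4 of them fell, and without restricted replicate 2 1. Of 67 genes of the spindle, kinetochore and cytokinesis 34 rose and 4 fell (median 0.19). Brakes of the cycle moved both ways: Cdkn1b, which encodes p27, stood at 82.05, 80.8 and 82.04 CPM in control and 53.3, 53.5 and 54.5 CPM under restriction, 1.52-fold lower, Cdkn2c, which encodes p18, fell 1.78-fold and the retinoblastoma gene Rb1 1.72-fold, while Cdkn1a, which encodes p21, rose 1.79-fold and had also been higher at 24 h (2.28). Skp2, which targets p27 for destruction, rose 2.02-fold. Of 32 p53 targets 8 rose and 12 fell, although Trp53 itself rose 1.75-fold; Trp53inp1, a p53-induced gene of autophagy and cell death, stood at 102, 87.7 and 103 CPM and 47.4, 43.8 and 43.9 CPM, 2.17-fold lower, after a log2 fold change of 2.41 at 24 h. Their median of -0.10 turned to 0.23, with 8 up and 5 down, under spike-in scaling. The polyamine genes, needed for growth, rose in 14 of 18 and fell in 3 (median 0.52), with the spermidine synthase gene Srm 1.79-fold higher and Smox, which oxidizes spermine, 1.51-fold lower.

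Of 14 tubulin isotype genes 11 rose and 3 fell (median 0.91). Tuba1a stood at 51.2, 42.04 and 59.7 CPM in control and 195, 213 and 204 CPM under restriction, 3.97-fold higher, and the more abundant Tuba1b at 238, 187 and 272 CPM and 720.1, 751 and 723 CPM, 3.14-fold higher. Tubb4a, a neuronal isotype, stood at 5.23, 5.85 and 4.98 CPM and 1.43, 0.807 and 0.623 CPM, 5.695-fold lower. The media did not overlap in these genes, and tubulin genes are alike enough in sequence that some reads may be shared. Of 29 genes of actin, adhesion and the cytoskeleton 22 rose and 4 fell (median 0.36). Actb went from 4679, 4894 and 4733 CPM to 6839, 6833 and 7145 CPM, the actin bundler gene Lcp1 rose 1.82-fold and S100a6, a calcium-binding protein gene of activated cells, 3.704-fold, while Lsp1, a leukocyte actin-binding protein gene, fell 1.66-fold.

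Cytokine genes rose more often than they fell. Of 28 cytokine genes 17 rose and 2 fell, with a median log2 fold change of 0.996. Lta, which encodes lymphotoxin alpha, stood at 319.6, 272 and 339.8 CPM in control and 838, 833 and 825 CPM under restriction, 2.67-fold higher (log2 fold change 1.42, standard error 0.054, edgeR adjusted p = 9.84e-20). Lif, of the IL-6 family, stood at 66.2, 74.8 and 65.4 CPM and 194, 184 and 185 CPM, 2.74-fold higher, its relative Osm rose 2.02-fold and Il24, of the IL-10 family, 1.74-fold. The media were apart in all of these. Cytokine genes typical of other T cell lineages were also higher, at low levels: Il3 stood at 0.278, 0.669 and 0.78 CPM in control and 3.47, 2.65 and 2.54 CPM under restriction, Il22 at 0.891, 0.669 and 0.54 CPM and 4.08, 2.999 and 3.69 CPM, and Il17a at 0.39, 0 and 0.24 CPM and 1.701, 2.83 and 2.18 CPM. Csf2, which encodes GM-CSF, rose 3.81-fold from 1.19 CPM. Il9 had no count in the 3 control libraries and 39 counts under restriction, at least 11.8-fold higher when control is set at a floor of 3 counts over the group. Which cells of the culture held these few transcripts cannot be told from bulk RNA. Of 13 listed NK and gamma-delta T cell marker genes 2 rose and none fell. Their summed level was 7.36 to 9.30 CPM in control and 9.73 to 11.6 CPM under restriction. A list of 7 CD4 and regulatory T cell marker genes summed to 1548 to 1746 CPM and 2199 to 2310.0 CPM, with 2 up and 3 down. Most of that sum came from genes other than the 4 defining CD4 T cell genes given above. Those 4 summed to 116.7 to 129.6 CPM in control and to less, 57.8 to 67.4 CPM, under restriction. The part of such cells in the cytokine values was not tested. The 2 cytokine genes of the list that fell were Il16, 1.36-fold lower, and Tnfsf8, which encodes CD30 ligand, 1.24-fold lower but with a log2 fold change of 0.03 under spike-in scaling. Il11, a cytokine gene known from stromal cells and outside the list, stood at 24.6, 31.3 and 24.8 CPM and 5.92, 4.56 and 6.44 CPM, 4.74-fold lower.

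Of 16 tested genes of granzymes, perforin and granule proteins 10 rose and 3 fell (median 0.81). Serpinb9, the inhibitor that shields a killer cell from its own granzyme B, stood at 252, 246 and 264 CPM in control and 555, 596 and 586 CPM under restriction, 2.28-fold higher. Tnfsf10, which encodes the death ligand TRAIL, rose 2.08-fold. Ctsw, a granule protease of cytotoxic cells, stood at 50.9, 51.5 and 51.8 CPM and 29.1, 24.7 and 26.9 CPM, 1.91-fold lower, and Nkg7, a granule membrane protein gene, at 248, 309.6 and 249 CPM and 208, 203 and 220.0 CPM, 1.28-fold lower. Both sets of libraries were apart in all 4 genes.

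Receptor genes for cytokines fell more often than they rose, while the counts for chemokine and homing receptors lay nearer the background shares. Of 27 cytokine receptor genes 5 rose and 13 fell (median -0.09, turning to 0.22 with 5 up and 3 down under spike-in scaling). Il18rap, which encodes an IL-18 receptor chain, stood at 13.2, 13.5 and 10.2 CPM in control and 40.3, 43.1 and 44.6 CPM under restriction, and its partner Il18r1 rose 2.14-fold. Il7r, the receptor that keeps naive and memory cells alive, stood at 134, 121 and 132 CPM and 56.8, 63.7 and 67.5 CPM, 2.06-fold lower. Ifnar2, of the type I interferon receptor, fell 2.02-fold and Il15ra, which presents IL-15, 1.75-fold. Of 28 chemokine and homing receptor genes 11 rose (39.29%) and 6 fell (21.43%), against 29.83% and 27.34% of protein-coding genes (median 0.20). Ccr2, a receptor for entry into inflamed tissue, stood at 1.95, 1.504 and 1.92 CPM in control and 8.23, 7.84 and 9.19 CPM under restriction, 4.63-fold higher, and Cxcr6, a receptor of tissue-resident cells, rose 3.15-fold to 6.95 CPM. Itga4 and Itgb7, which together encode the gut-homing integrin, fell 2.67-fold and 2.56-fold, from 53.8 and 186 CPM. The selectin ligand gene Selplg fell 1.67-fold and the lymph node receptor gene Ccr7 1.5-fold, while the adhesion receptor gene Cd44 rose 1.63-fold.

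Inhibitory and costimulatory receptors did not move as blocks. Of 22 inhibitory receptor and ligand genes 8 rose and 6 fell, with 5 up without control replicate 2. With spike-in scaling 10 rose and 3 fell. Ctla4 stood at 161, 141 and 159.6 CPM in control and 331, 351 and 358 CPM under restriction, 2.25-fold higher, and Havcr2, which encodes TIM-3, at 1.67, 2.84 and 1.38 CPM and 5.92, 7.04 and 7.89 CPM, 3.69-fold higher. Lag3 went the other way, from 237, 269 and 237 CPM to 105, 93.4 and 92.1 CPM, 2.56-fold lower, as did Tox, a transcription factor gene of exhausted T cells, at 7.18, 6.85 and 8.94 CPM and 4.83, 2.37 and 3.17 CPM, 2.27-fold lower. The adenosine-making ectoenzyme gene Nt5e fell 3.97-fold and Vsir, which encodes VISTA, 1.64-fold. Of 21 costimulatory receptor genes 7 rose and 7 fell, with Tnfrsf8, which encodes CD30, 2.26-fold higher at 297 CPM, and Tnfrsf18, which encodes GITR, 1.58-fold lower at 334 CPM. With spike-in scaling 7 of the 21 rose and 1 fell.

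Transcription factor genes of T cell fate were lower more often than higher, 17 against 11 of 38 (median -0.14, turning to 0.20 with 12 up and 3 down under spike-in scaling). Bcl6, of follicular and memory cells, stood at 4.51, 3.84 and 5.52 CPM in control and 1.97, 2.08 and 1.61 CPM under restriction, 2.49-fold lower, and Gata3, of type 2 cells, at 6.07, 5.68 and 6.42 CPM and 2.25, 2.31 and 2.44 CPM, 2.597-fold lower. Myb, a regulator of self-renewing memory cells, stood at 23.5, 26.2 and 26.3 CPM and 53.95, 57.9 and 50.2 CPM, 2.13-fold higher, and Id2, of effector cells, rose 1.89-fold. Genes of the T cell receptor and its first signals fell in 15 of 30 and rose in 9 (median -0.09, turning to 0.24 with 9 up and 1 down under spike-in scaling). Cd3g fell 1.58-fold, from 161, 138 and 169 CPM to 97.9, 103 and 95.8 CPM, and Nr4a1, an immediate early gene of the receptor, 1.86-fold, while Lcp2, which encodes the adapter SLP-76, rose 1.32-fold. Cd3e, used above as a marker, had a log2 fold change of -0.21 that turned to 0.13 with spike-in scaling.

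Among genes of interferon responses falls outnumbered rises, though in the type I list the share of falls was near the background. Ifng, which encodes interferon gamma, was 4.61-fold higher. Of 37 type I interferon stimulated genes 12 fell (32.43%) and 6 rose (16.22%), against 27.34% and 29.83% of protein-coding genes. Their median was -0.20 at 72 h against 1.03 at 24 h. Under spike-in scaling the 72 h median turned to 0.09, with 6 up and 5 down. Ifit1, whose product binds viral RNA, stood at 5.96, 7.86 and 6.72 CPM in control and 2.65, 2.25 and 2.29 CPM under restriction, 2.84-fold lower, and Oasl1 fell 2.38-fold. Slfn2, a schlafen gene of T cell quiescence and interferon response, went up 2.88-fold, from 11.8, 10.9 and 12.4 CPM to 33.1, 35.1 and 33.5 CPM. Of 20 genes of interferon gamma GTPases with Irf1, 9 fell and 4 rose (median -0.15, turning to 0.18 with 4 up and 5 down under spike-in scaling): Gbp8 stood at 19.6, 18.5 and 17.99 CPM and 4.42, 4.33 and 4.62 CPM, 4.19-fold lower, Gbp4 fell 2.07-fold and Gbp2 rose 1.42-fold. These GTPase genes lie in clusters of near copies, so shared reads are possible.

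All 21 genes of MHC class I presentation were called, 16 lower and 5 higher, with a median log2 fold change of -0.44; with spike-in scaling the median was -0.12, and 2 were lower and 5 higher. The class I gene H2-D1 stood at 1789, 1838 and 1751 CPM in control and 1287, 1287 and 1260.0 CPM under restriction, 1.403-fold lower, and H2-Q4 at 135, 159 and 131 CPM and 75.5, 71.0 and 73.3 CPM, 1.93-fold lower. Tap1, which pumps peptides into the ER, stood at 278, 292 and 262 CPM and 172, 155 and 166 CPM, 1.69-fold lower, and the loading chaperone gene Tapbp fell 1.69-fold. No restricted library reached the control range in these 4 genes. Psmb10, the immunoproteasome gene named above, was the member that rose most, and Erap1, the peptide trimmer, rose 1.23-fold. Class I genes are close in sequence, and reads may be shared among them. Of 14 listed B cell marker genes, cells rich in antigen presentation genes, 7 fell and 1 rose, with a summed level of 102.5 to 114.5 CPM in control and 74.2 to 82.4 CPM under restriction, and their part in the class I values was not tested.

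A further 990 genes were called at 72 h but at neither 24 h nor 4 h, with a 72 h effect that differed from that at 24 h. Among those that rose, besides Gzmc and the metallothioneins Mt2 and Mt3, were Rai14, an ankyrin repeat gene, at 4.45, 3.26 and 3.96 CPM in control and 13.7, 12.5 and 14.3 CPM under restriction, Hbegf, a ligand of the EGF receptor, at 3.396, 3.59 and 3.96 CPM and 10.3, 13.7 and 11.6 CPM, and Phlda1, at 3.01, 4.93 and 2.998 CPM and 12.9, 11.6 and 10.3 CPM. They were 3.43-fold, 3.26-fold and 3.26-fold higher, and a lack of overlap between the media was a condition of naming them. Among those that fell were Rims3, a presynaptic protein gene, at 34.2, 37.2 and 33.1 CPM in control and 9.53, 8.305 and 8.57 CPM under restriction, and Haao, an enzyme gene of tryptophan breakdown, at 22.2, 27.9 and 21.9 CPM and 7.48, 5.48 and 5.71 CPM. Spock2, a proteoglycan gene, fell 3.66-fold and Rgs12, which turns off G proteins, 3.05-fold.

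The 72 h response was set beside the 24 h response, which shares no library with it. It ran opposite for 3564 genes called at both times, counted only where the difference between the times also passed the test. It ran in the same direction for 1250 genes called at both times, counted without that condition. At 24 h 27.5% of the genes tested were higher and 28% lower under restriction, and the difference between the effects at 72 h and 24 h passed upward for 29.5% and downward for 27.7%. Upward differences were found in 69 of 69 ribosome biogenesis genes, 50 of 51 replication genes, 33 of 37 proteasome genes and 24 of 34 glycolysis genes. Downward differences were found in 24 of 37 type I interferon genes, 31 of 47 immediate early and feedback genes and 134 of 326 genes of the Zfp series of zinc fingers, which at 24 h were higher in 138 and lower in 44 and at 72 h higher in 53 and lower in 75. Cytosolic ribosomal protein genes, with 26 upward and 22 downward differences of 81, were lower at both times in the median (-0.21 at 24 h and -0.14 at 72 h, the latter 0.19 with spike-in scaling). In the same direction at all 3 time points were 635 genes, 349 higher and 286 lower; Asns, Nars, Atf4, Slc7a11 and Slc7a3 are among the former.

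**Figure D5:**
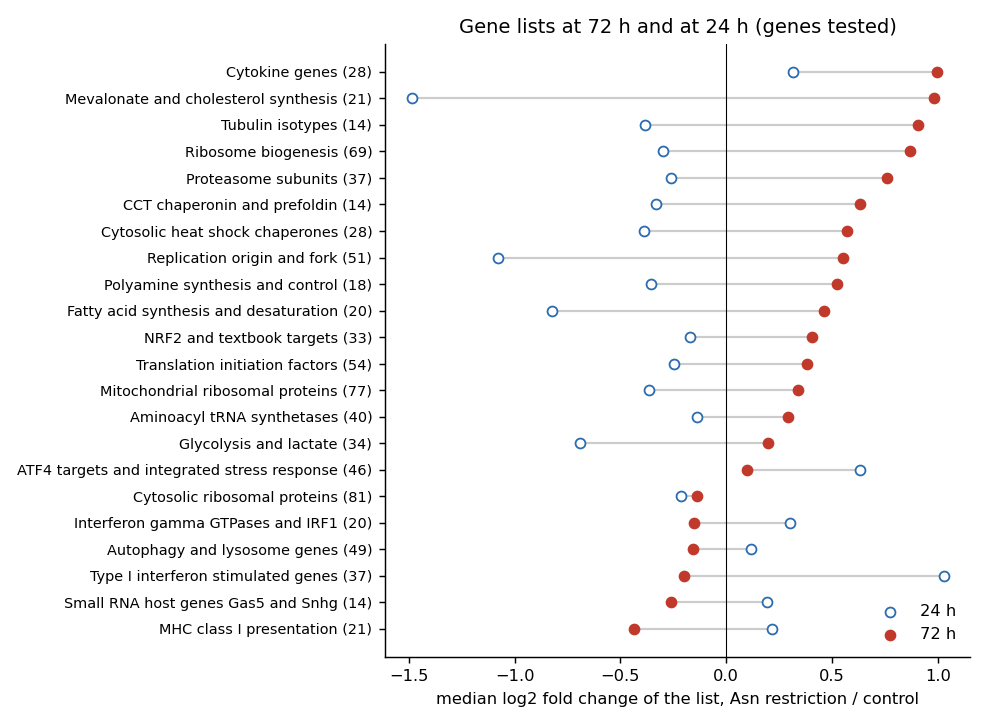
Median log2 fold change of 22 gene lists, Asn restriction over control, at 24 h (open symbols) and at 72 h (filled symbols). Of the lists plotted cholesterol synthesis moves furthest, from -1.49 to 0.98, and the type I interferon list moves the other way, from 1.03 to -0.20.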

How the data were processed

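RNA was extracted with a column kit and DNase I, and libraries were sequenced on an Illumina HiSeq instrument. The submitters' processing notes name Trim Galore 0.60, STAR 2.7 and RSEM 1.31 without stating each role, and name human and mouse builds. The authors deposited whole-number counts per gene for 18 libraries, which are the values analysed here. They also deposited normalized counts, a signal from which only their size factors were recovered for one alternative, group means, gene lengths, and log2 fold changes and p-values of their own comparisons, which were not used.

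Counts were fitted with edgeR 4.0.16 (R 4.3.3) as 6 group means over all 18 libraries, without the ERCC rows, after filterByExpr, which kept 14871 genes, and TMM scaling. Calls used the quasi-likelihood test with Benjamini-Hochberg adjusted p at 0.05 over all genes tested. CPM values are TMM-scaled, RPKM values divide them by the deposited gene length, and standard errors are those of the log2 fold change. The 3 replicates of a group limit the precision. Standard errors come from the fit and include the spread between libraries, while the floor given for Il9 covers counting error only. The fit recovered changes planted in a small share of genes of simulated counts. In these data 49.2% of genes were called, so that simulation does not test the scaling used here. The comparison, the gene lists and the tests were chosen with earlier results of these data known. Genes were named by rule: the largest changes among genes of at least 10 CPM without overlap of the groups, the genes with the largest gain or loss of CPM, up to 4 members of each list in each direction at 5 CPM or more, the genes the study is about, and the largest changes seen at 72 h alone. Others, such as the low cytokine genes, Nars, Ddit3, H2-D1 and Srebf2, were named after their values were seen. Alternatives changed the scaling, the filter, the libraries, the threshold and the tool (limma 3.58.1, DESeq2 1.42.0). Promoters are from RefSeq. Some genes and sequences are not reported here.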

Additional observations from a re-analysis of the deposited data

Results flagged for a closer look

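At 72 h and 24 h 3564 genes were called in opposite directions, with a difference between the effects that itself passed edgeR's quasi-likelihood test. Among the genes named in the report, the log2 fold change at 72 h minus that at 24 h was 3.63 for Fabp5, 3.6 for Dna2, 2.71 for Dhx9 and 2.50 for Mat2a, each lower at 24 h and higher at 72 h. It was -7.51 for Cox6a2, -7.10 for Angptl6, -5.58 for Avil, -5.36 for Il11, -5.0 for Pou6f1, -3.93 for Arrdc4 and -3.74 for Txnip, each higher at 24 h and lower at 72 h. The same held, with smaller differences, for the T cell receptor gene Trac at -0.93, the oxidant response regulator Nfe2l2 at -1.28 and Cd3e at -0.58; the 72 h falls of Nfe2l2 and Cd3e turned to small rises, 0.07 and 0.13 on the log2 scale, with spike-in scaling.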

How the results depend on the processing

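Against 7313 genes called at 72 h, a further minimum of a log2 fold change of 1 left 1435 (647 higher, 788 lower), and spike-in scaling left 754 lower. The genes whose effect differed between 72 h and 24 h numbered 8507, and 5099, of which 2119 lower, with spike-in scaling. Leaving out a library gave 6669 to 7051 genes, 3490 to 3747 higher and 3117 to 3389 lower. The replicate numbers do not pair the libraries (correlations of same-numbered deviations -0.019, -0.040 and -0.010 at 72 h); with a replicate block the count was 6400 at 72 h alone and 6952 within each time point. Spike-in scaling reversed the log2 fold change of Cd3e (0.13), Nfe2l2 (0.069), Pycr1 (0.12), Tm7sf2 (0.16) and Tnfsf8 (0.028), and the medians of the transcription factors (0.20), T cell receptor genes (0.24), type I interferon genes (0.089), interferon gamma GTPases (0.18), cytosolic ribosomal proteins (0.19), autophagy genes (0.17), p53 targets (0.23) and Snhg genes (0.088); without TMM factors Srebf2 (-0.023) and the medians of ATF4 targets (-0.011) and ER chaperones (-0.066) reversed, the last also with the authors' size factors (-0.017). Falls such as those of Eef1a1, Eef2, H2-D1, Ddit3 and Tap1 kept their sign but did not pass under spike-in scaling. The cause was not tested. With 3 libraries per group, small changes in weakly expressed genes are not detectable at this depth.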
